A study of Mus musculus with 9 samples.

Results

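Siglecs are cell-surface lectins that bind sialic acid, the sugar that caps many glycoproteins and gangliosides of the brain. Inhibitory Siglecs carry a tyrosine motif (ITIM) in the cytoplasmic tail that Src-family kinases phosphorylate and that then recruits the phosphatases SHP-1 and SHP-2, which dampens activating receptors. Others have a charged residue in the membrane and pair with the adaptor Tyrobp (DAP12) instead. In microglia, human CD33 is known as an Alzheimer risk gene and a brake on uptake, although the mouse protein is known to differ from it in the cytoplasmic tail, and the balance of Siglecs and their sialylated ligands is known to set the threshold for phagocytosis.

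The 5 genes described here, Cd33, Siglech, Siglece, Siglec1 and Siglecg, were taken by name as mouse sialic acid receptors of myeloid cells, out of 36528 gene numbers in the files. All 5 passed the filter on low counts, as did 12250 genes in all. The RNA was from brain cells sorted for Cd11b, an integrin chain of microglia and other myeloid cells, of mice aged 11 to 12 months. The Tau-P301L group held 5 libraries (1 and 2 female, 3 to 5 male) from mice with a transgene for tau carrying the P301L mutation of inherited frontotemporal dementia. Its comparison group was wild-type, with 4 libraries (1 and 2 female, 3 and 4 male) of littermates without the transgene. The promoter of the transgene and whether each library came from a separate mouse are not stated in what was read here, so that p-values speak of the spread between these samples alone, which may be technical.

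Tau-P301L libraries held 1494727 to 2934587 reads counted in genes and wild-type libraries 2681666 to 3793606. Counting was of whole gene models, so that isoforms of a receptor were not told apart. Levels are given as CPM, read counts scaled to library size after TMM normalization, where 3 reads correspond to 0.945 to 2.08 CPM in Tau-P301L mice and 0.824 to 1.14 CPM in the wild type, or as the authors' RPKM, which divides by gene length and is used wherever genes are set against each other. Over all genes, Tau-P301L libraries 3 and 5 resembled the rest least, with a mean r of 0.852 and 0.843 against 0.871 to 0.901 for the other 7. Microglial markers were abundant throughout: the 12 listed genes, among them Tmem119, P2ry12 and Sall1, summed to 8360 to 15100 CPM in Tau-P301L mice and 10400 to 13300 CPM in the wild type. In bulk samples such as these, fewer cells of a type and less RNA per cell cannot be told apart.

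Cd33, Siglece and Siglecg lie in the Siglec cluster of mouse chromosome 7, at 43527399 to 43537424, 43648882 to 43672044 and 43408192 to 43418349 of GRCm38. Siglech lies on the same chromosome outside that cluster (55768154 to 55779448), and Siglec1 lies on chromosome 2 (131067801 to 131086778). Cd33, Siglece and Siglec1 are on the minus strand and Siglech and Siglecg on the plus strand. No other annotated gene overlaps Cd33, Siglec1 or Siglecg, whereas the span of Siglece overlaps those of Ceacam18 and Ctu1, which held 25 and 87 reads over all 9 libraries against 1394 for Siglece. Siglech overlaps the long noncoding gene Gm39015, not analysed here.

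The promoter windows of the 3 most abundant receptors are shown because these genes share a myeloid setting but differ in level. Each window runs from 250 bases before to 50 bases after a RefSeq transcript start (GRCm38.p6), as 1 strand read 5′ to 3′. The windows are chr7:43533122-43533421 (minus strand) for Cd33, chr7:55767934-55768233 (plus strand) for Siglech and chr7:43660112-43660411 (minus strand) for Siglece. The Cd33 and Siglece windows lie inside the annotated spans of their genes. Capitals mark GAGGAA, or TTCCTC on the other strand, the core letters bound by the myeloid factor PU.1.
Cd33: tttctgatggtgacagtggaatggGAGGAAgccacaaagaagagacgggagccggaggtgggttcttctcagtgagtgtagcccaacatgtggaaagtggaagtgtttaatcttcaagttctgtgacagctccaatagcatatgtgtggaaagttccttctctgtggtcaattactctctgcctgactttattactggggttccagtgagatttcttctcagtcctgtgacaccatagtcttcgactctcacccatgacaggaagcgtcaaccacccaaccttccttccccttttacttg
Siglech: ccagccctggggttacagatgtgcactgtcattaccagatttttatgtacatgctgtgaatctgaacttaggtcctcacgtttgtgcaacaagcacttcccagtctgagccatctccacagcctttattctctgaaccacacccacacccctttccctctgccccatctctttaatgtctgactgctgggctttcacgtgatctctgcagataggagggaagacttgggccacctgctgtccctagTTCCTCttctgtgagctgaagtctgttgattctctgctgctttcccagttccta
Siglece: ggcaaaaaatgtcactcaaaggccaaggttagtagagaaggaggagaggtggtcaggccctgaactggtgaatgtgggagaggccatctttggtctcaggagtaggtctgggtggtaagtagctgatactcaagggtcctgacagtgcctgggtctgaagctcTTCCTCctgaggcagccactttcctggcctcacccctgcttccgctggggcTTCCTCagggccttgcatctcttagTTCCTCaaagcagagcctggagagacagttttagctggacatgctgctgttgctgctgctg
The core occurred once in the Cd33 window, 226 bases before the start, and once in the Siglech window, 4 bases before it. The Siglece window held 3 copies. Of 32851 mouse promoter windows of this length, 28.3% held the core, so that a match by itself describes the letters only. Of the 5 genes 4 had an entry in the promoter table.

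Per unit length the 5 receptors spanned 3 orders of level in these cells. Siglech, a receptor of microglia and plasmacytoid dendritic cells that signals through Tyrobp, was highest, at 188.3 ± 57.2 RPKM in Tau-P301L (SD, n = 5) and 221 ± 55.8 RPKM in the wild type (SD, n = 4). Cd33 followed, at 109.1 ± 30.6 and 70.25 ± 8.91 RPKM in Tau-P301L mice and wild-type libraries. Siglech was above Cd33 within each of the 9 libraries, although their ranges over libraries overlapped. By mean RPKM they lay at percentiles 99.8 and 99.6 of the 12250 genes tested. Siglece, an inhibitory receptor of neutrophils, monocytes and microglia, stood at 5.58 ± 1.75 RPKM in Tau-P301L mice and 7.86 ± 1.75 RPKM in the wild type, apart from Cd33 with no overlap. Siglecg, an inhibitory receptor best known from B cells, stood at 0.230 ± 0.190 RPKM in Tau-P301L mice and 0.557 ± 0.241 RPKM in the wild type. Siglec1 (sialoadhesin, CD169), an adhesion receptor of border and other tissue macrophages, stood at 0.226 ± 0.0818 and 0.179 ± 0.139 RPKM. The levels of Siglecg and Siglec1 overlapped, with Siglecg higher in 7 of 9 libraries, and both rested on few reads, 118 and 132 over all libraries.

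**Figure D1:**
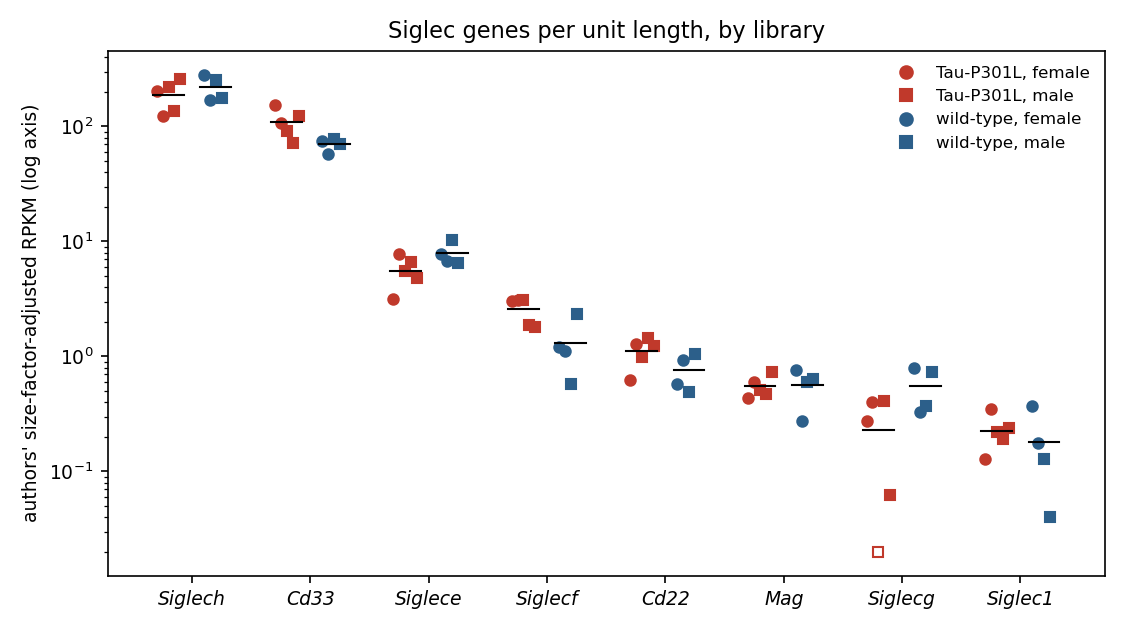
Authors' size-factor-adjusted RPKM (log axis) of 8 Siglec genes, 1 point per library, circles for females and squares for males, with black lines at group means. Siglech and Cd33 lie far above Siglece, and the remaining genes lie within a few RPKM or below; the open square is a Siglecg value of 0, drawn at the foot of the axis.

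The other Siglec genes of the mouse filled the range below Siglece. Siglecf, known from eosinophils and alveolar macrophages, averaged 2.57 ± 0.675 RPKM in Tau-P301L mice and 1.30 ± 0.734 RPKM in the wild type. Cd22, a B-cell receptor also reported in aged microglia, averaged 1.11 ± 0.318 and 0.763 ± 0.269 RPKM, and Mag, the Siglec of myelin, 0.549 ± 0.118 and 0.567 ± 0.205 RPKM in the same order. Siglece was above Siglecf in each of the 9 libraries without overlap of their ranges, while Cd22, Mag, Siglecg and Siglec1 each overlapped their neighbours in this order. Siglec15, known from osteoclasts, had 0 reads in all 9 libraries.

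Between genotypes, Cd33 had the smallest p of the 5 receptors. It stood at 2052, 1464, 1182, 959 and 1610 CPM in Tau-P301L libraries 1 to 5 and at 1015, 775.3, 1036 and 950.1 CPM in libraries 1 to 4 of the wild type. The groups overlapped, because Tau-P301L library 4 lay within the wild-type range, and the other 4 Tau-P301L libraries exceeded each wild-type library. The means were 1453 ± 418.5 CPM in Tau-P301L mice (SD, n = 5) and 944.1 ± 118.4 CPM in the wild type (SD, n = 4), which differ by 0.62 on the log2 scale (SE 0.23, 95% interval 0.13 to 1.11) or 1.54-fold. The unadjusted p of edgeR's quasi-likelihood test was 0.0153, rank 264 of 12250 genes, and the adjusted p was 0.708, so the difference did not pass over all genes. DESeq2 gave an adjusted p of 0.421 and limma-voom one of 0.722.

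The spread of Cd33 was wider in Tau-P301L libraries, with a coefficient of variation of 28.8% against 12.5% in wild-type libraries. Its highest value, in female library 1, decided part of the size: without that library the log2 fold change was 0.47 (adjusted p = 0.934, edgeR). Without Tau-P301L libraries 3 and 5 it was 0.58 (adjusted p = 0.992, edgeR). Scaled to the summed microglial markers in place of all genes, it was 0.80 (SE 0.25, adjusted p = 0.419, edgeR). That scaling moved the median log2 fold change of all genes to 0.20, so relative to it the value was close to that of the usual scaling.

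Siglech went the other way and differed by less than its spread. It stood at 2380, 1461, 2520, 1599 and 2963 CPM in Tau-P301L libraries 1 to 5 and at 3345, 1986, 2944 and 2115 CPM in libraries 1 to 4 of the wild type. The groups overlapped over most of their range, with the lowest values in Tau-P301L libraries 2 and 4. The log2 fold change came to -0.27 (SE 0.26, 95% interval -0.80 to 0.26, edgeR adjusted p = 0.864).

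Siglece was also lower on average, without passing the test. It stood at 27.09, 66.92, 45.8, 55.97 and 40.16 CPM in Tau-P301L libraries 1 to 5 and at 67.47, 57.48, 86.87 and 56.29 CPM in libraries 1 to 4 of the wild type. Of the 5 Tau-P301L libraries, 4 lay below all wild-type libraries and library 2 lay within their range. The log2 fold change came to -0.51 (SE 0.31, 95% interval -1.15 to 0.13, edgeR adjusted p = 0.789). Neutrophil markers were uneven between libraries: their 10 genes, among them S100a8, S100a9 and Ngp, summed to 279 CPM in Tau-P301L library 4 and 1.26 to 5.54 CPM in the other 4, against 0.338 to 80.8 CPM in the wild type. Monocyte markers, with Ccr2 and Vcan the most abundant and Vcan separate between groups (log2 fold change 1.10, SE 0.43, edgeR adjusted p = 0.733), summed to 42.9 to 83.5 CPM in Tau-P301L mice and 26.6 to 79.5 CPM in the wild type. Of the 3 tested, 2 had higher estimates in Tau-P301L and 1 a lower one. The lower one was Ccr2, at 36.97 ± 17.52 CPM in Tau-P301L mice and 43.63 ± 20.31 CPM in the wild type. The part of these cells in the Siglece values was not tested.

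Siglec1 and Siglecg were near the limit of depth. Siglec1 had 11, 27, 13, 12 and 9 reads in Tau-P301L libraries 1 to 5 and 33, 14, 9 and 4 reads in wild-type libraries 1 to 4. Its log2 fold change came to 0.58 (SE 0.68, 95% interval -0.84 to 2.00, edgeR adjusted p = 0.899), which does not show a direction. Its level spread more between wild-type libraries, from 1.10 to 10.0 CPM, than the group means of 6.03 ± 2.24 CPM in Tau-P301L mice and 4.82 ± 3.78 CPM in the wild type lay apart. The 11 border macrophage markers summed to 156 to 298 CPM in Tau-P301L mice and 234 to 321 CPM in the wild type, most of it from Stab1 and Mrc1 (Stab1 log2 fold change -0.66, SE 0.30, unadjusted p = 0.0413, edgeR adjusted p = 0.776), while Pf4 and Cbr2 had 9 reads or fewer in each library. Of the 7 tested, 5 had lower estimates in Tau-P301L and 2, Ms4a7 and Lyve1, higher ones (median log2 fold change -0.18). Siglecg had 10, 13, 0, 11 and 1 reads in Tau-P301L libraries 1 to 5 and 30, 11, 11 and 31 reads in wild-type libraries 1 to 4. Its log2 fold change came to -1.27 (SE 0.79, 95% interval -2.91 to 0.38, edgeR adjusted p = 0.799), and Tau-P301L libraries 3 and 5 alone fell below the wild-type range by more than 1 CPM. The B-cell marker Pax5 had 0 reads in all libraries. The part of border macrophages in Siglec1 was not tested.

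**Figure D2:**
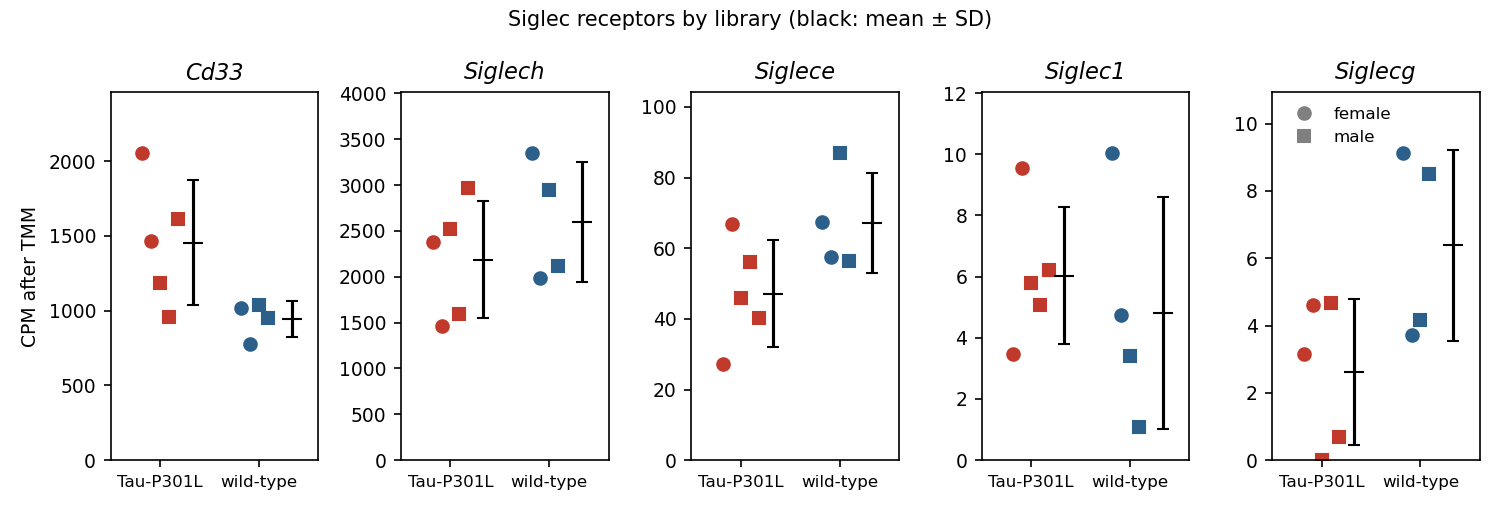
CPM after TMM scaling of the 5 receptors in each library (circles female, squares male), with black bars for mean ± SD (n = 5 Tau-P301L, n = 4 wild-type) and axes from 0. For Cd33, 4 of 5 Tau-P301L libraries lie above the wild-type ones, and for the other receptors the groups overlap.

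Of the 5 receptors, 0 passed an adjusted p of 0.05 with edgeR, DESeq2 or limma-voom, against 0.00816% of the 12250 genes tested with edgeR. At an unadjusted p under 0.05, 1 of 5 passed (Cd33), against 6.35% of all genes. The libraries of the groups were separate for 0 of 5 receptors, against 2.48% of all genes. Estimates were higher in Tau-P301L for 2 receptors and lower for 3, with a median log2 fold change of -0.27 beside -0.001 over all genes. In simulated data of this design, 10.3% of genes given a log2 change of 1 were called. A missing call, here and below, therefore does not show that a gene was unchanged.

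Cd33 and Siglech, the pair that makes up nearly all Siglec message per unit length, differed between genotypes in their ratio, with Cd33 higher relative to Siglech in Tau-P301L libraries. Per 100 Siglech reads there were 86.2, 100, 46.9, 60 and 54.4 Cd33 reads in Tau-P301L libraries 1 to 5 and 30.3, 39, 35.2 and 44.9 in wild-type libraries 1 to 4. Every one of the 5 Tau-P301L libraries had more than any of the 4 wild-type libraries, though library 3 only just above wild-type library 4. The mean log2 ratio was -0.58 ± 0.46 for Tau-P301L (SD, n = 5) against -1.44 ± 0.24 for the wild type (SD, n = 4), a difference of 0.85 or 1.8-fold (exact permutation test, two-sided, p = 0.0159, where the smallest possible is 0.00794). With genotype permuted within each sex the exact p was 0.0333 over 60 splits, where the smallest possible is 0.0167. This ratio does not depend on how libraries are scaled, but it was looked at with the opposite estimates of the pair already known. The groups were also separate for the ratio of Cd33 to 6.8% of the other 12249 genes, and for the ratio of 2.24% of other genes to Siglech, in the same direction. Without wild-type library 1, 2 or 3 the exact p was 0.0536 each, with differences of 0.76, 0.88 and 0.83. Mitochondrially encoded genes held 10.2, 10.3, 23.1, 18.6 and 15.4% of counted reads in Tau-P301L libraries 1 to 5. In wild-type libraries 1 to 4 they held 20, 10.3, 16.5 and 9.3%. Within the wild type the ratio fell as this share rose. In Tau-P301L, libraries 1 and 2, with the lowest shares, had the highest ratios. The part of this share in the ratio was not tested.

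**Figure D3:**
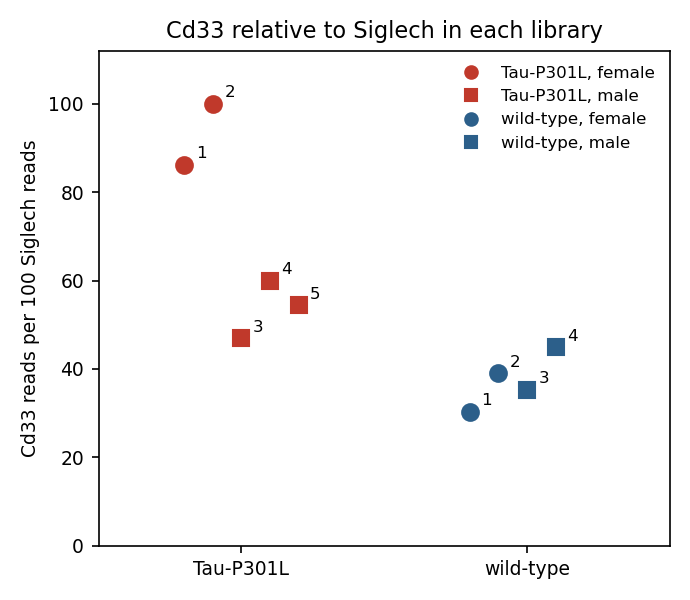
Cd33 reads per 100 Siglech reads in each library (circles female, squares male, numbers for the library within its group). The 5 Tau-P301L libraries lie between 46.9 and 100 and the 4 wild-type libraries between 30.3 and 44.9, with both Tau-P301L females highest.

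As shares of the summed RPKM of the 5 receptors, Cd33 made up 36.2 ± 7.16% in Tau-P301L and 23.8 ± 2.94% in wild-type libraries, and Siglech 61.5 ± 7.52% and 73.3 ± 3.09% in the same order. Siglece made up 2.03 ± 1.06% and 2.65 ± 0.387%. The summed CPM of the 5 receptors ranged from 2624 to 4620 in Tau-P301L and from 2828 to 4446 in wild-type libraries, so the total overlapped almost fully.

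Sex was the other labelled factor. In females Cd33 averaged 1758 CPM in Tau-P301L mice and 895 CPM in the wild type (n = 2 each), and in males 1251 CPM in Tau-P301L mice (n = 3) and 993.3 CPM in the wild type (n = 2). The interaction, the log2 effect in males minus that in females, was -0.64 for Cd33 (SE 0.46, unadjusted p = 0.174, edgeR adjusted p = 1), so that a difference between the sexes was not shown. The log2 ratio of Cd33 to Siglech differed between genotypes by 0.43 in males and by 1.43 in females. With sex permuted within each genotype, the difference between these effects gave an exact permutation p of 0.05 over 60 splits. That is at but not under the threshold, and the smallest possible is 0.0167. That permutation takes sex to have no effect at all on the ratio within a genotype. It also leaves aside the mitochondrial share of reads, 10.2 and 10.3% in the Tau-P301L females and 15.4 to 23.1% in the Tau-P301L males. For Siglech, Siglece, Siglec1 and Siglecg the interaction was 0.37, -0.18, 1.53 and -1.02, with edgeR adjusted p of 1 for each. Leaving out 1 library, these ran from -0.067 to 0.76, -0.69 to 0.60, 0.88 to 2.50 and -3.55 to -0.43 in the same order, so their sizes and, for Siglech and Siglece, their signs rest on single libraries. None of the 5 had an unadjusted interaction p under 0.05, against 3.95% of genes, and 0% of 13302 genes passed adjusted. Males against females over both genotypes, the 5 log2 fold changes lay between -0.88 (Siglec1) and 0.13 (Siglech), with edgeR adjusted p of 1 for each. At an adjusted p under 0.05, 0 of 5 were called, against 0.049% of all genes. The smallest unadjusted p of the 5 was 0.206 (Siglec1, edgeR).

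Across the 9 libraries the receptors did not move as a block. Cd33 and Siglech had a Pearson r of 0.10 on log2 CPM, Cd33 and Siglece one of -0.68 (Spearman rho -0.47), and Siglece and Siglecg one of 0.45. The other 7 pairs lay between -0.37 and 0.17. The genes most like Cd33 among 7725 with a mean of at least 10 CPM were Pcnp (r = 0.95, rho = 0.78) and Ube2j1 (r = 0.93, rho = 0.93), followed by a gene number without a symbol (r = 0.92). Those most like Siglech were Tmed9 (r = 0.95, rho = 0.90), Pou2f2 (r = 0.94, rho = 0.93) and F11r (r = 0.92, rho = 0.88). These values describe the same 9 libraries, which share depth and genotype, and the genes were picked as the highest of those compared.

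Among the other Siglecs, Siglecf had 32.44, 33.64, 32.01, 19.93 and 18.69 CPM in Tau-P301L libraries 1 to 5 and 13.07, 11.83, 6.07 and 25.26 CPM in libraries 1 to 4 of the wild type. Wild-type library 4 lay above Tau-P301L libraries 4 and 5, and the other wild-type libraries lay below all of them. The log2 fold change came to 0.95 (SE 0.43, 95% interval 0.06 to 1.85, unadjusted p = 0.0385, edgeR adjusted p = 0.776). Cd22 had a value of 0.49 (SE 0.41, adjusted p = 0.850) and Mag one of -0.08 (SE 0.53, adjusted p = 0.984), both with edgeR.

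Of 10 listed genes around ITIM signalling, 0 passed in either direction with edgeR, with a median log2 fold change of 0.01. An unadjusted p under 0.05 was found for 2. The list held phosphatases, Src-family kinases and the kinase Syk, and also Socs3 and Cbl, which are neither. Fgr, a Src-family kinase of myeloid cells, had 14.8, 36.5, 26.2, 10.2 and 7.62 CPM in Tau-P301L libraries 1 to 5 and 7.29, 5.07, 6.45 and 3.57 CPM in libraries 1 to 4 of the wild type. Every Tau-P301L value exceeded every wild-type value, library 5 only narrowly, and the log2 fold change came to 1.79 (SE 0.51, edgeR adjusted p = 0.547). Src, the founding kinase of the family, averaged 8.72 ± 2.90 CPM in Tau-P301L mice and 17.6 ± 10.1 CPM in the wild type (log2 fold change -1.02, SE 0.48, edgeR adjusted p = 0.776). Ptpn6, which encodes SHP-1, averaged 27.1 ± 11.3 and 41.4 ± 5.22 CPM (-0.61, SE 0.35, adjusted p = 0.789, edgeR), and Ptpn11, which encodes SHP-2, had a log2 fold change of 0.02 (SE 0.37). Inpp5d, the lipid phosphatase SHIP1, stood at 320.7 ± 110.1 and 426 ± 76.2 CPM (-0.40, SE 0.25, adjusted p = 0.802, edgeR).

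Listed adaptors of activating receptors, 2 of them tested, gave no call either. Tyrobp, the partner of Siglech, had a value of -0.37 on the log2 scale (SE 0.26, edgeR adjusted p = 0.816) and Fcer1g, the Fc receptor gamma chain, 0.14 (SE 0.30). Hcst (DAP10) was too low to test, with 2 reads or fewer in each Tau-P301L and 4 or fewer in each wild-type library. Of 4 tested genes linked with CD33 or microglial Alzheimer risk, 0 passed with edgeR and 0 had an unadjusted p under 0.05 (median -0.36). Trem2, an activating receptor that CD33 is known to oppose, had a value of -0.42 (SE 0.24, adjusted p = 0.789, edgeR). Ms4a6d had a value of 0.61 (SE 0.43) and the lipid transporter Abca7 one of -0.43 (SE 0.38).

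The genes that make, attach, modify and remove sialic acid, the ligand side of the family, gave 0 calls with edgeR. Tested were 5 genes of synthesis, 16 of a sialyltransferase list and 6 of removal and turnover, with medians of 0.14, 0.06 and 0.14. The 16 included Casd1, which acetylates sialic acid and is not a sialyltransferase. St8sia6, a sialyltransferase that adds sialic acid to sialic acid, was the 1 gene of these lists with an unadjusted p under 0.05. It had 81.6, 51.7, 91.2, 50.5 and 88.6 CPM in Tau-P301L libraries 1 to 5 and 34.3, 54.8, 17.1 and 33.8 CPM in libraries 1 to 4 of the wild type, overlapping only through wild-type library 2 (log2 fold change 1.11, SE 0.35, unadjusted p = 0.00456, edgeR adjusted p = 0.593). St3gal6 and St6galnac4, which cap other glycans, had values of -0.49 (SE 0.25) and -0.77 (SE 0.38), and St6gal1, which makes ligands of Cd22, one of 0.04 (SE 0.33). In synthesis, Gne, the entry enzyme, had a value of -0.19 (SE 0.40), Cmas, which activates the sugar, 0.14 (SE 0.40), and Slc35a1, its carrier into the Golgi, 0.73 (SE 0.36, edgeR adjusted p = 0.776). Cmah, which makes the glycolyl form of sialic acid, ranged from 0 to 17.8 CPM in Tau-P301L mice and from 0 to 21 CPM in the wild type (log2 fold change 1.26, SE 1.46), and Nans, a synthase of the pathway, had a value of -0.49 (SE 0.88).

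In removal and turnover, Neu1, the lysosomal sialidase, had 16.4, 20.5, 5.78, 16.5 and 20.1 CPM in Tau-P301L libraries 1 to 5 and 22.2, 27.7, 29.2 and 20.6 CPM in libraries 1 to 4 of the wild type. All Tau-P301L libraries lay below all wild-type libraries, by 0.1 CPM at the closest, and the log2 fold change of -0.65 (SE 0.40, edgeR adjusted p = 0.800) did not pass. Siae, which removes acetyl groups from sialic acid, had a value of 0.69 (SE 0.42) and Npl, which breaks sialic acid down, 0.40 (SE 0.47). Of the known protein ligands, Cd24a was too low to test, and Spn (CD43) had a value of 0.48 (SE 1.45).

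Other inhibitory receptors of myeloid cells, 11 tested, had a median log2 fold change of 0.31, 0 calls with edgeR and 1 unadjusted p under 0.05. Lilrb4a averaged 44.2 ± 9.25 CPM in Tau-P301L mice and 20.3 ± 9.90 CPM in the wild type with no overlap (log2 fold change 1.15, SE 0.39, edgeR adjusted p = 0.683). Sirpa, the receptor for the signal CD47, averaged 721.1 ± 81.9 and 937.9 ± 103.2 CPM, with all Tau-P301L libraries below all wild-type libraries (-0.38, SE 0.20, adjusted p = 0.789, edgeR). Fcgr2b, the inhibitory Fc receptor, had a value of 0.57 (SE 0.37).

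**Figure D4:**
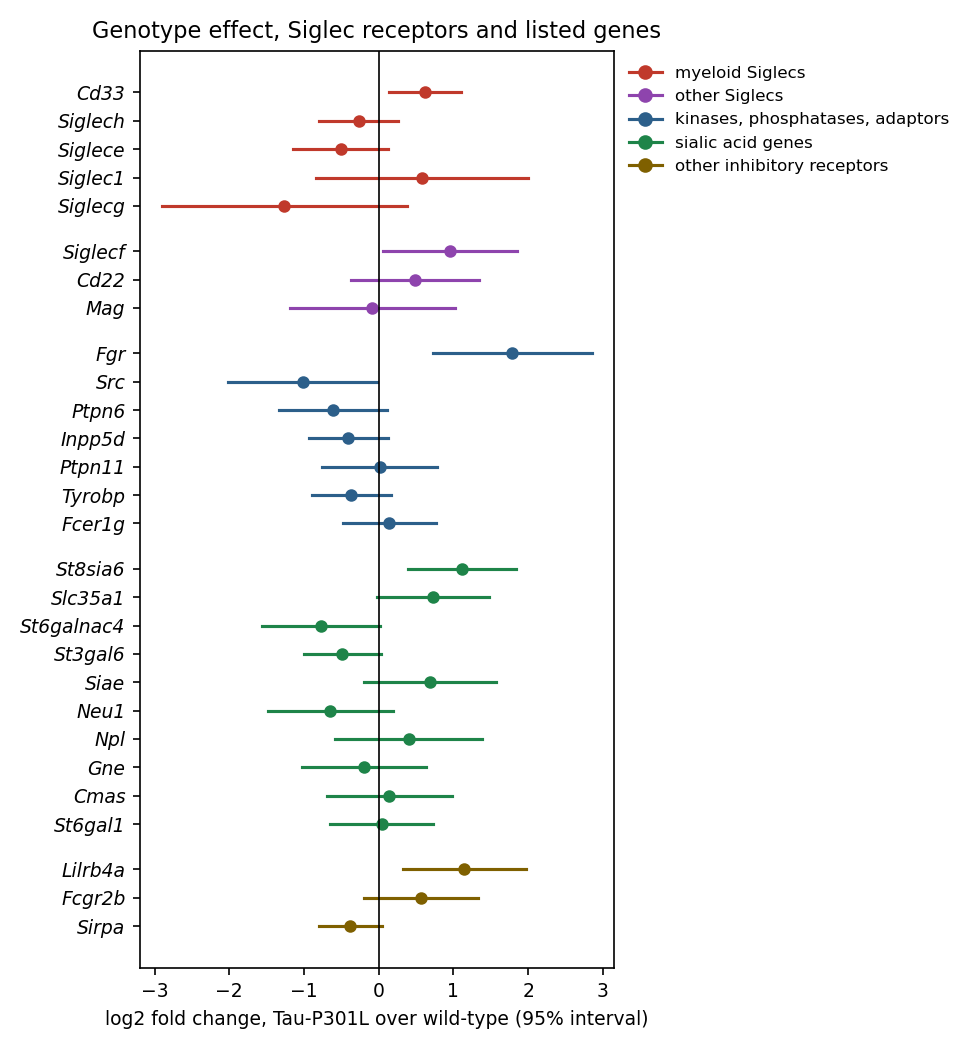
Log2 fold change, Tau-P301L over wild-type, with 95% intervals from edgeR, for the 5 myeloid Siglecs, other Siglecs and listed genes of signalling and sialic acid metabolism. Of the 5 receptors, the interval of Cd33 alone (0.13 to 1.11) lies off 0; those intervals are not adjusted for the 12250 genes tested.

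Each list of markers of other cells summed to less CPM than the microglial list in every library. The lists differ in gene number and length, so these sums do not measure shares of cells. In Tau-P301L library 5 the neuronal and oligodendrocyte lists reached 2780 and 1430 CPM beside 12500 CPM for the microglial list. Listed plasmacytoid dendritic markers, cells that also carry Siglech, summed to 5.67 to 19.6 CPM in Tau-P301L mice and 12.1 to 21.6 CPM in the wild type, with Cd209d at 0 reads throughout. B-cell markers summed to 9.33 to 32.5 and 5.31 to 11.5 CPM, mostly Cr2 (log2 fold change 1.17, SE 0.50, edgeR adjusted p = 0.772), and T- and NK-cell markers to 0.315 to 1.42 and 0.676 to 2.74 CPM, with Cd3e, Cd3g, Ncr1 and Nkg7 at 0. Conventional dendritic markers summed to 58.4 to 196 and 36.9 to 101 CPM, oligodendrocyte markers to 321 to 1430 and 507 to 700 CPM, neuronal markers to 434 to 2780 and 704 to 1870 CPM, and astrocyte markers to 300 to 654 and 305 to 372 CPM, each time Tau-P301L and then wild type. Of these, Mbp, a myelin protein gene, stood at 38.7 ± 11.3 CPM in Tau-P301L mice and 76.5 ± 14.5 CPM in the wild type with no overlap (log2 fold change -0.95, SE 0.30, unadjusted p = 0.00437, edgeR adjusted p = 0.593), and Camk2a, a neuronal kinase gene, at 74.8 ± 35.8 and 116.7 ± 37.8 CPM with overlap (-0.75, SE 0.31, unadjusted p = 0.0264, edgeR adjusted p = 0.768). Endothelial markers summed to 5.51 to 38.1 and 10.8 to 26.9 CPM, with Cldn5 at 0. Of the 12 microglial markers 10 had lower estimates in Tau-P301L (median log2 fold change -0.25), 0 passed with edgeR, and Sall1, Olfml3 and Slc2a5 had an unadjusted p under 0.05. Of 5 tested astrocyte markers 5 had higher estimates in Tau-P301L (median 0.56), with 0 at an unadjusted p under 0.05. Of 5 tested neuronal markers 1 had a higher and 4 a lower estimate (median -0.44). Most of the neuronal sums was Meg3, at 323 to 2570 CPM in Tau-P301L mice and 539 to 1580 CPM in the wild type.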

How the data were processed

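Each deposited file held 1 sample. Its counts are whole reads that aligned to a single gene model, as the authors describe them per the file headers. The RPKM values beside them were adjusted by the authors with a size factor for every sample, per the file headers. GSNAP and GRCm38 are named in the submitters' processing notes. Versions, annotation and the use of strand are not stated in what was read here. Symbols, positions and promoter sequences came from RefSeq (GRCm38.p6; 31049 of 36528 gene numbers had a symbol), and transcript strands from GENCODE M21.

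Genotype was tested with edgeR 4.0.16 in R 4.3.3 by the quasi-likelihood method, with TMM scaling, the default filter on low counts, and sex as a covariate (6 residual degrees of freedom). P-values were adjusted by Benjamini-Hochberg over all 12250 genes, with a threshold of 0.05. A second model held the product of sex and genotype. The biological coefficient of variation came to 0.464. DESeq2 1.42.0 and limma 3.58.1 served as alternatives, beside other scalings, filters and left-out libraries. The ratio was computed on reads plus 0.5 and compared by exact permutation of the library labels, two-sided. The scripts were tested on simulated data of this design. At an adjusted p under 0.05, 0.847% of genes given a log2 change of 0.5 were called. For changes of 1 and 2 the shares were 10.3% and 60%. Libraries of a group differed by more than counting noise in all 16 pairs (lowest chi-square for each degree of freedom 13.03). The genes and lists were chosen with earlier results of these data known. Named beside the 5 receptors are the 3 genes of smallest p in a list and 10 genes picked for their role whatever their result; in the lists of cell markers, a test is printed only for genes under an unadjusted p of 0.05, and other genes are named for their level.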

Additional observations from a re-analysis of the deposited data

Results flagged for a closer look

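None of the 5 receptors had a library far from the others of its group. Among the 66 genes and ratios examined, in 130 groups of libraries, 14 values stood far from the rest of their group, where chance gives about 1 in 20 groups. In Tau-P301L library 4 the neutrophil genes S100a8, S100a9 and Ngp stood at 44.5, 57.2 and 88.2 CPM against at most 0.708, 0.692 and 0.889 CPM in the other 4. In the same library Ptpn11 stood at 64.4 CPM against 18.7 to 27.0 CPM, and Camk2a at 137 CPM against 48.9 to 70.7 CPM. In Tau-P301L library 5 Slc35a1 stood at 61.6 CPM against 26.8 to 33.9 CPM, Mobp at 122 CPM against 30.2 to 41.8 CPM, and Olfml3 at 374 CPM against 243 to 260 CPM. In Tau-P301L library 3 Neu1 stood at 5.78 CPM against 16.4 to 20.5 CPM, and the dendritic factor Zbtb46 at 169 CPM against 23.4 to 63.6 CPM. In wild-type library 1 Cmah stood at 21 CPM against 0 to 2.37 CPM, St3gal6 at 235 CPM against 158 to 171 CPM, and Zbtb46 at 74.8 CPM against 11.8 to 22.0 CPM. In wild-type library 4 Flt1 stood at 8.24 CPM against 0.379 to 0.676 CPM.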

How the results depend on the processing

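The genotype estimates of Cd33, Siglech, Siglece and Siglecg kept their direction and stayed short of the threshold under every alternative that gave a value; that of Cd33 ran from 0.34 (males alone) to 0.97 (females alone). Their sizes did not hold as well. Leaving out 1 library, Siglech ran from -0.41 (wild-type 4) to -0.087 (wild-type 1), Siglece from -0.80 (Tau-P301L 2) to -0.34 (Tau-P301L 1), Siglecg from -1.92 (Tau-P301L 4) to -0.90 (wild-type 4) and Siglec1 from 0.16 (wild-type 4) to 0.99 (wild-type 1). Without Tau-P301L libraries 3 and 5 Siglech was at -0.55 and Siglecg at -0.62. Siglec1 turned to -0.195 in females alone. The count of genes called for genotype, 1, was 27 with DESeq2, 26 with no low-count filter, and 0 with at least 10 reads in every library, without both Tau-P301L libraries 3 and 5, in females alone and in males alone. Leaving out 1 library gave 0 to 1. Scaling by the microglial markers moved the median of all genes to 0.20, Siglech to -0.078 and Siglece to -0.26. For the interaction, 0 genes were called, against 22 with no filter, 4 with DESeq2 and 0 to 4 leaving out 1 library. The interaction of Siglech then ran from -0.067 to 0.76 that of Siglece from -0.69 to 0.60, that of Siglec1 from 0.88 (without wild-type 1) to 2.50 (without wild-type 3) and that of Siglecg from -3.55 (without Tau-P301L 4) to -0.43 (without Tau-P301L 3). The sex effect ran from -0.041 to 0.31 for Siglech and from -0.094 to 0.45 for Siglece. The difference in the Cd33 to Siglech ratio ran from 0.70 to 0.98 leaving out 1 library. Without Tau-P301L libraries 3 and 5 it was 1.118 (exact permutation p = 0.0286, the smallest that the remaining libraries allow). That fit, the permutation of genotype within sex and the permutation of sex within genotype were chosen after seeing the data. The cause of these changes was not tested. No paired analysis was possible because the labels give the libraries no shared replicate numbers; the numbers used here follow the order of deposit and only name the libraries.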
